A study of Mus musculus with 14 samples.

Results

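The dual specificity MAP kinase phosphatases are a family of 8 genes here, *Dusp1*, *Dusp2*, *Dusp4*, *Dusp5*, *Dusp6*, *Dusp8*, *Dusp10* and *Dusp16*. A gene was counted as measured when a non-control probe of the array carried its symbol. This held for 7 of the 8, with 10 of the 41174 probes and out of 27962 gene names on the array. No probe bore the name *Dusp5*, which is therefore not analysed here. Of the 10 probes, 9 were tested, which required a signal well above background throughout 1 or more of the groups.

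Gene expression was measured on 14 one-colour microarrays. All cells were *p65*(-/-) NIH 3T3 mouse embryonic fibroblasts, which lack the NF-κB subunit p65 (RelA), and a lentivirus put back p65 or its vector alone. The cells were serum-starved overnight. Wild type p65, the triple mutant KTR (K310/314/315R) and the double mutant K314/315R differ in the lysines that can be acetylated, and pTV is the empty vector, so that pTV cells were not given p65 back. Each line was a selected pool of cells, not a clone. Wild type (3 arrays), KTR (3), K314/315R (2) and pTV (3) received TNFα (30 ng/ml) and were measured 3 h later. A further 3 arrays hold wild type cells at 0 h without TNFα. Untreated pTV, KTR and K314/315R cells were not analysed here, so the comparisons with pTV are of levels at 3 h. RNA of the replicates was isolated on different days, so p-values measure the spread between these isolates. They do not cover differences between independently made pools. No further pool of any construct is described, so the construct and the pool cannot be told apart.

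MAP kinases (ERK, JNK and p38) are switched on by phosphorylation of a threonine and a tyrosine, and these phosphatases remove both phosphates. *Dusp1*, *Dusp2*, *Dusp4* and *Dusp5* encode nuclear enzymes whose genes are typically induced by the pathways they shut off. *Dusp6* encodes a cytoplasmic phosphatase selective for ERK, and *Dusp8*, *Dusp10* and *Dusp16* encode enzymes directed mainly at JNK and p38. TNFα activates the MAP kinases as well as NF-κB.

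The fibroblast label held: all 10 fibroblast markers were tested, and 9 of them were well above background on all 14 arrays. None of the 4 endothelial markers was well above background on any array, nor were *Ptprc*, *Itgam* and *Emr1* among the 6 macrophage markers or *Cdh1* and *Epcam* among the 4 epithelial ones. The remaining macrophage markers were well above background on some arrays, but none on all 14. Of the 2 macrophage markers tested, neither passed between wild type and pTV (median log2 difference -0.49). Of the epithelial list, *Krt8* and *Krt18* were lower in wild type than in pTV. *Krt18* was well above background on all 3 pTV arrays. In wild type at 3 h it was so on replicate 3 alone (-4.42), and the other replicates measured -6.52 and -5.45. It was so on no KTR or K314/315R array, so the size of its difference is uncertain. The summed signal of the 4 genes lay between -2.55 and -2.26 in wild type at 3 h and -2.02 and -1.99 in wild type at 0 h (log2 relative to the 75th percentile). It lay between -2.21 and -2.01 in KTR, -2.10 and -1.95 in K314/315R and -1.70 and -1.39 in pTV. The part of these epithelial genes in the results below was not tested. Of the fibroblast markers, *Pdgfra* and *Pdgfrb* were higher and *Thy1* lower in wild type than in pTV. *Rela*, which encodes p65, was read by 2 probes. Its brighter probe measured 1.52 to 1.54 in wild type at 3 h, 0.97 to 1.04 in untreated wild type and 1.00 to 1.34 in pTV. KTR replicate 3 (0.79) lay below all 3 pTV arrays. The position of the probes relative to the deleted part of the gene was not known here, so they do not check the labels. *Tnfaip3*, an NF-κB target, was 4.06 to 4.61 on every array of a p65-carrying line at 3 h and 0.55 to 0.92 in pTV, KTR replicate 3 (4.36) included. Replicates 1 to 3 of wild type, KTR, pTV and untreated cells each shared a slide, and both K314/315R arrays were on a further slide of their own, so for that line slide and mutant cannot be told apart.

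Promoter sequence is shown for 3 of the members that were higher in pTV. *Dusp1* and *Dusp8* hold the same 8-base word, and *Dusp6* does not, nor do *Dusp2* and *Dusp10*. The 3 were chosen after the values were seen. The RefSeq table of mouse promoters (GRCm38.p6) held 7 of the 8 members (250 bases before to 50 after the start site). *Dusp4* had no entry. The 250 bases before the start of *Dusp1* (minus strand, chr17:26508473-26508722) and of *Dusp6* (plus strand, chr10:99262981-99263230) are printed 5′ to 3′, and 30 bases around each of the 2 sites of *Dusp8* (minus strand, chr7:142095373-142095402 and chr7:142095329-142095358). Capitals mark TGACG on either strand, the core of a cAMP response element (CRE), whose full palindrome is TGACGTCA.
Dusp1: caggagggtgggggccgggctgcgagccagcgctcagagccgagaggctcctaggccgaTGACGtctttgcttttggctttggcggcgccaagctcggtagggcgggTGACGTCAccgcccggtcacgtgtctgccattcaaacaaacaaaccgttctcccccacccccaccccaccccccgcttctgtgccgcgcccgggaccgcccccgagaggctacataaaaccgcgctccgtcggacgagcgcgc
Dusp8 site 1: gcccgctccgcTGACGTCAcctgcccccga
Dusp8 site 2: ttggctgcaggTGACGTCAggggctttttc
Dusp6: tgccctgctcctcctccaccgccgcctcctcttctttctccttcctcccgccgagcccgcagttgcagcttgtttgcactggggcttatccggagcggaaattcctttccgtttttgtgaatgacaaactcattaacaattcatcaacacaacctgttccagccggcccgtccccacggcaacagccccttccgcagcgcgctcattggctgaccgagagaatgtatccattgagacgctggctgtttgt

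Searched on both strands, TGACGTCA was found in 2 of the 7 member windows, against 1.79% of all 32851 windows of 300 bases. It lay at -143 to -136 from the start site of *Dusp1*, and at -107 to -100 and -63 to -56 from that of *Dusp8*. The shorter TGACG, which the palindrome contains, was in 5 of 7, against 20.8% of all windows. A CArG box was in the *Dusp5* window alone (1 of 7, against 1.63%). The κB consensus, the word bound by NF-κB, was in 0 of 7 against 8.46%, and TGANTCA, which takes in the AP-1 word, in 0 of 7 against 7.81%. The *Dusp8* window lies inside the annotated span of its gene (142079487 to 142095907 on chromosome 7), as does that of *Dusp16* (134715468 to 134807063 on chromosome 6), so other transcripts may start upstream of them. These are matches of letters in short windows and say nothing of binding.

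Across the members, the highest levels were those of the cells without p65. At 3 h of TNFα, *Dusp1*, *Dusp2*, *Dusp4*, *Dusp6*, *Dusp8* and *Dusp10* were lower in wild type than in pTV (6 of 7 measured members by adjusted p under 0.05, by 1.85- to 2.71-fold). This compares with 6.8% of all tested probes being lower in that comparison. The same 6 were lower than pTV in KTR (background 5.89%) and in K314/315R (background 13.5%). TNFα raised *Dusp4*, *Dusp6* and *Dusp8* in wild type cells (3 of 7, by 1.56- to 2.05-fold), against 2.71% of all tested probes higher. Neither mutant differed from wild type at any member by the adjusted p (0 of 7 each). For all probes 0.235% changed in KTR and 2.21% in K314/315R. At an unadjusted p under 0.05, 2 of 7 members differed in KTR, against 9.19% of all tested probes, and 0 of 7 in K314/315R, against 17.4%.

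**Figure D1:**
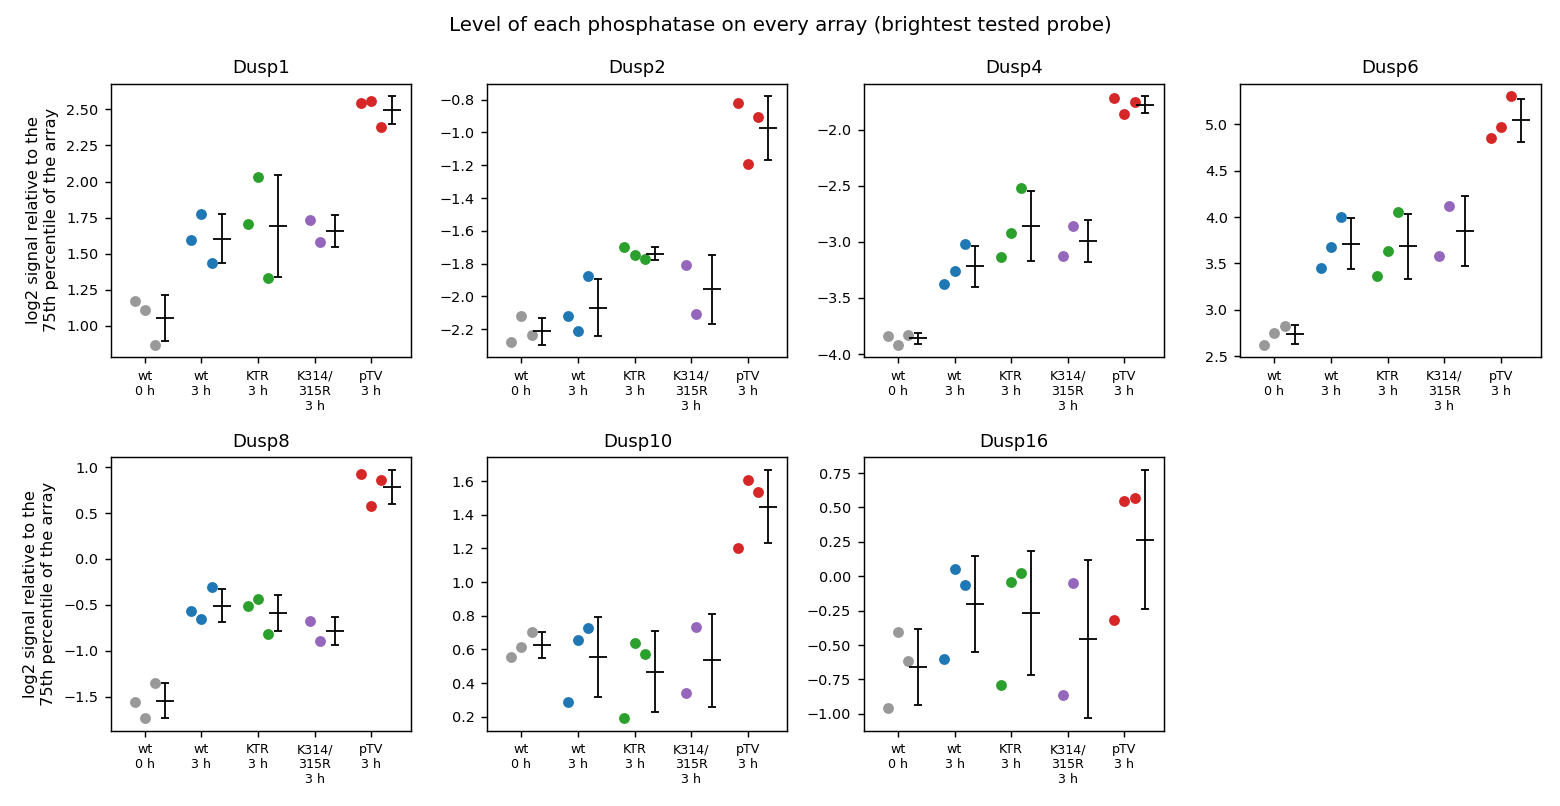
Signal of each of the 7 measured phosphatases on all 14 arrays. The y axis is log2 of the signal over the 75th percentile (different range in each panel), each point is 1 array, and the bar to its right is the group mean with 1 SD (n = 3, or 2 for K314/315R). The 3 pTV arrays lie above every other array for 6 of the 7 genes, and *Dusp16* alone overlaps. The share of all tested probes that separate in this way was not counted.

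Levels are given as log2 of the signal over the 75th percentile of the array, so that 0 is a signal equal to that percentile and 1 unit is a 2-fold difference. Differences are given with the standard error from the limma model, in which 14 arrays share the estimate of the spread, and with the Benjamini-Hochberg adjusted p over all tested probes. Signals of different probes are not comparable as levels of RNA. In bulk RNA, fewer cells expressing a gene and less of its RNA per cell cannot be told apart.

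*Dusp1* encodes the nuclear phosphatase MKP-1, an immediate early gene product that acts on p38, JNK and ERK. In arrays of replicates 1 to 3, *Dusp1* measured 1.17, 1.11 and 0.87 in untreated wild type cells and 1.60, 1.78 and 1.44 in wild type cells after 3 h of TNFα. The values were 1.71, 2.03 and 1.33 in KTR and 1.74 and 1.58 in the 2 K314/315R arrays. In pTV they were 2.54, 2.56 and 2.38. The untreated arrays were all below the treated wild type arrays, and the pTV arrays were above all others. *Dusp1* was 1.85-fold lower in wild type than in pTV (log2 difference -0.89 ± 0.16, limma adjusted p = 0.00245), with differences of -0.95 to -0.78 in the 3 pairs of arrays on the same slide. By TNFα, it differed by 0.55 ± 0.16, which did not pass the test (limma adjusted p = 0.0831), and the difference within slides was 0.42 to 0.67. The replicate number marks the slide for every line except K314/315R. When this number entered the model as a block, the TNFα difference passed (limma adjusted p = 0.0113). With the slide as a random block it passed too (limma adjusted p = 0.0106). It also passed without KTR replicate 2 (0.041) or 3 (0.0305).

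*Dusp2* (PAC-1) encodes a nuclear phosphatase known from activated lymphocytes. In arrays of replicates 1 to 3, *Dusp2* measured -2.28, -2.12 and -2.24 in untreated wild type cells and -2.12, -2.21 and -1.88 in wild type cells after 3 h of TNFα. The values were -1.70, -1.75 and -1.77 in KTR and -1.81 and -2.10 in the 2 K314/315R arrays. In pTV they were -0.82, -1.19 and -0.91. Untreated and treated wild type arrays overlapped, the KTR arrays were above all wild type arrays at 3 h, and pTV was highest. The level in wild type was 2.14-fold below pTV (log2 difference -1.10 ± 0.12, limma adjusted p = 6.14e-05). TNFα gave a difference of 0.14 ± 0.12 (limma adjusted p = 0.655), with 1 of 3 slides in the other direction. KTR minus wild type was 0.33 ± 0.12 (limma adjusted p = 0.419).

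*Dusp4* (MKP-2) encodes a nuclear phosphatase of ERK, JNK and p38. In arrays of replicates 1 to 3, *Dusp4* measured -3.84, -3.92 and -3.83 in untreated wild type cells and -3.38, -3.26 and -3.02 in wild type cells after 3 h of TNFα. The values were -3.14, -2.92 and -2.52 in KTR and -3.12 and -2.86 in the 2 K314/315R arrays. In pTV they were -1.72, -1.86 and -1.75. The 5 groups form 3 separate levels, with untreated wild type at the bottom, the 3 p65-carrying lines at 3 h overlapping in the middle and pTV on top. Of all members, *Dusp4* had the smallest adjusted p against pTV, at a difference of 2.71-fold (log2 -1.44 ± 0.15, limma adjusted p = 2.66e-05). It rose 1.56-fold with TNFα (log2 0.64 ± 0.15, limma adjusted p = 0.0289). Without wild type replicate 2 or 3 at 3 h, or without any 1 of the untreated arrays, this TNFα difference no longer passed (log2 0.54 to 0.66, limma adjusted p 0.0815 to 0.126). It did not pass either without the filter on dim probes (0.64, limma adjusted p = 0.0864), on signals without background correction (0.20, 0.515) or with normexp on 12 arrays (0.31, 0.835). KTR minus wild type was 0.36 ± 0.15 (limma adjusted p = 0.481).

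*Dusp6* (MKP-3) encodes the cytoplasmic phosphatase of ERK and is known as a gene that follows ERK activity. In arrays of replicates 1 to 3, *Dusp6* measured 2.63, 2.76 and 2.83 in untreated wild type cells and 3.45, 3.68 and 4.0 in wild type cells after 3 h of TNFα. The values were 3.36, 3.64 and 4.05 in KTR and 3.58 and 4.12 in the 2 K314/315R arrays. In pTV they were 4.85, 4.97 and 5.30. Untreated arrays were again lowest and pTV arrays highest, with no array of these 2 groups overlapping any other group. *Dusp6* was 2.51-fold lower in wild type than in pTV (log2 -1.33 ± 0.20, limma adjusted p = 0.000732). With TNFα it rose 1.97-fold (log2 0.98 ± 0.20, limma adjusted p = 0.0187), by 0.83 to 1.17 within slides. As for *Dusp4*, the TNFα call was lost without wild type replicate 2 or 3 at 3 h and without any 1 untreated array (limma adjusted p 0.0543 to 0.0842, log2 0.83 to 1.02). It was also lost without the filter on dim probes (log2 0.98, limma adjusted p = 0.056).

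*Dusp8* encodes a phosphatase directed at JNK and p38. In arrays of replicates 1 to 3, *Dusp8* measured -1.56, -1.73 and -1.35 in untreated wild type cells and -0.56, -0.65 and -0.31 in wild type cells after 3 h of TNFα. The values were -0.51, -0.44 and -0.81 in KTR and -0.68 and -0.89 in the 2 K314/315R arrays. In pTV they were 0.93, 0.58 and 0.86. Untreated arrays were lowest and pTV arrays highest without overlap, and both K314/315R arrays were below the 3 wild type arrays at 3 h. The rise with TNFα was 2.05-fold (log2 1.04 ± 0.15, limma adjusted p = 0.00165), and 0.99 to 1.08 on each of the 3 slides. Against pTV, wild type was 2.46-fold lower (log2 -1.30 ± 0.15, limma adjusted p = 6.16e-05). K314/315R minus wild type was -0.28 ± 0.16 (limma adjusted p = 0.422).

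*Dusp10* (MKP-5) encodes a phosphatase of JNK and p38. In arrays of replicates 1 to 3, *Dusp10* measured 0.55, 0.62 and 0.71 in untreated wild type cells and 0.29, 0.66 and 0.73 in wild type cells after 3 h of TNFα. The values were 0.19, 0.64 and 0.57 in KTR and 0.34 and 0.73 in the 2 K314/315R arrays. In pTV they were 1.20, 1.61 and 1.54. Untreated wild type and the 3 p65-carrying lines at 3 h overlapped, and pTV stood above them. Wild type was 1.86-fold below pTV (log2 -0.89 ± 0.17, limma adjusted p = 0.00285). With TNFα the difference was -0.07 ± 0.17 (limma adjusted p = 0.903), higher on 2 slides and lower on 1.

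*Dusp16* (MKP-7) encodes a phosphatase of JNK and p38 and was read by 3 probes. At the brightest, the values were -0.96, -0.41 and -0.62 in untreated wild type, -0.60, 0.05 and -0.06 in wild type at 3 h, -0.79, -0.04 and 0.02 in KTR, -0.86 and -0.05 in K314/315R and -0.32, 0.55 and 0.57 in pTV. Replicate 1 was the lowest array of every group, and all 5 groups overlapped with their neighbours. Neither TNFα (log2 0.46 ± 0.31, limma adjusted p = 0.528) nor wild type against pTV (log2 -0.47 ± 0.31, limma adjusted p = 0.393) passed the test. Blocking on the replicate number let both pass, at limma adjusted p = 0.0189 for TNFα and 0.00751 against pTV. KTR against pTV (limma adjusted p = 0.00372) and K314/315R against pTV (0.00227) also passed under the block, though the numbers of K314/315R are not shown to pair with the others. Over all probes, calls under the block also rose, from 3287 to 5243 for wild type against pTV. They rose from 3361 to 5542 for KTR and from 5763 to 8847 for K314/315R against pTV. On each of the 3 slides, *Dusp16* was higher with TNFα (by 0.36 to 0.56) and lower in wild type than in pTV (by -0.63 to -0.28).

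The other 2 *Dusp16* probes gave a larger TNFα difference, log2 0.73 ± 0.18 (limma adjusted p = 0.044) and 0.89 ± 0.22 (adjusted p = 0.0458). The probe with the difference of 0.89 is dim. It was well above background on 12 of 14 arrays, and 8.27% of the tested probes were dimmer. Against pTV these 2 probes measured -0.45 ± 0.18 and -0.10 ± 0.22, and neither passed (limma adjusted p = 0.139 and 0.845). The probes of *Dusp16* thus disagree on whether the TNFα difference passes. The second *Dusp4* probe was well above background on 1 of 14 arrays, pTV replicate 3, and was not tested.

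**Figure D2:**
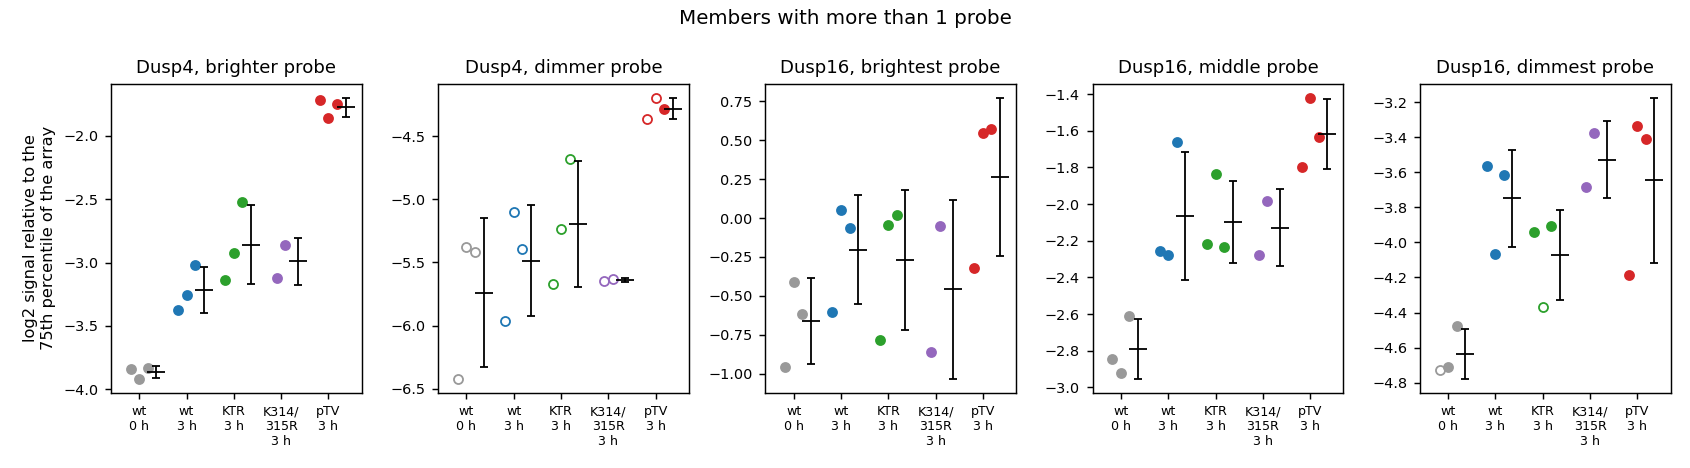
The 2 *Dusp4* and 3 *Dusp16* probes on all 14 arrays. The y axis is log2 of the signal over the 75th percentile, each point is 1 array (open where the spot was not well above background), and bars give the group mean with 1 SD. The dimmer *Dusp4* probe has 1 filled point, and the middle and dimmest *Dusp16* probes separate untreated from treated wild type arrays.

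The TNFα comparison asked which of these genes respond in cells with wild type p65. Of 7 members, 3 rose, 0 fell and 4 did not pass, and the median log2 difference was 0.55, beside -0.04 over all tested probes. *Dusp8*, *Dusp6* and *Dusp4* rose. *Dusp8* alone was called in each of the 14 fits that left out 1 array. When normexp background correction replaced that of the scanner software, no member passed, and across all probes the calls fell from 1037 to 23.

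The comparison of wild type with pTV asked how the level at 3 h of TNFα differs between the pools with and without p65. All 7 differences were negative, with 6 passing the test, and the median was -1.10, beside -0.03 over all tested probes, of which 1780 were higher and 1507 lower. For KTR against pTV the median was -0.98 and for K314/315R against pTV -0.98, with 6 of 7 passing in each. Without K314/315R replicate 2, *Dusp1* no longer passed against pTV in that mutant (log2 -0.76, limma adjusted p = 0.0523), and without pTV replicate 1 *Dusp16* passed as well (-1.02, 0.0472). *Dusp8* differed by -1.38 ± 0.15 in KTR (limma adjusted p = 4.59e-05) and -1.57 ± 0.16 in K314/315R (3.79e-05), and *Dusp6* by -1.36 ± 0.20 (0.000705) and -1.19 ± 0.23 (0.00274). These 3 comparisons share the pTV arrays, so they are not independent of each other. With normexp, *Dusp6* and *Dusp8* still passed in wild type against pTV and *Dusp8* in each mutant against pTV, and over all probes the wild type against pTV calls fell from 3287 to 385.

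**Figure D3:**
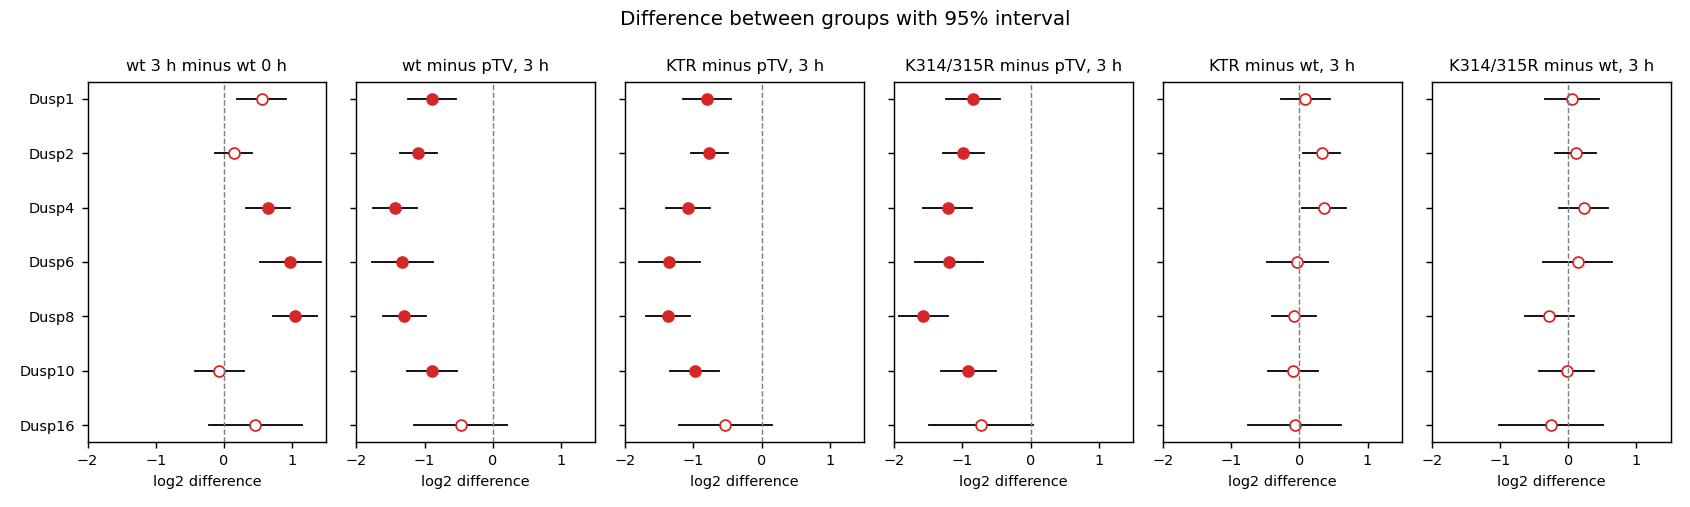
Log2 difference between groups for each member and comparison, with the 95% interval of the limma model. Filled points passed the test (adjusted p under 0.05). In the 3 comparisons with pTV, 6 of 7 points are filled and left of 0, and in the 2 comparisons of a mutant with wild type no point is filled.

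The comparisons of KTR and K314/315R with wild type asked whether these genes differ between pools whose p65 differs in the acetylatable lysines. No member passed, with log2 differences from -0.09 to 0.36 in KTR and from -0.28 to 0.23 in K314/315R. The 95% intervals reached from -0.75 to 0.68 over the members in KTR and from -1.02 to 0.64 in K314/315R, both of the low ends being those of *Dusp16*. For *Dusp6* the interval was -0.48 to 0.42 in KTR and -0.36 to 0.64 in K314/315R, and for *Dusp8* -0.40 to 0.24 and -0.64 to 0.08. Of the members, *Dusp2* (0.06 to 0.60) and *Dusp4* (0.03 to 0.68) had unadjusted intervals in KTR that left out 0, and both were higher than wild type on 3 of 3 slides (by 0.10 to 0.47 and 0.24 to 0.50), but neither passed the adjusted test.

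The other genes of the pathway were counted in the same fits. Of the other MAP kinase phosphatases, *Dusp7*, which acts on ERK, and *Dusp9* were tested. *Dusp9* was lower in wild type than in pTV (log2 -0.91 ± 0.10, limma adjusted p = 6.51e-05), and *Dusp7* measured -0.10 ± 0.12 (0.664). *Dusp7* was higher in KTR than in pTV (0.65 ± 0.13, limma adjusted p = 0.00608) and lower in K314/315R than in pTV (-0.56 ± 0.13, 0.00911). Its difference from wild type was 0.75 ± 0.13 in KTR (0.0522) and -0.46 ± 0.13 in K314/315R (0.0975), which did not pass.

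Among 9 tested atypical and other dual specificity phosphatases, 4 were lower in wild type than in pTV, none was higher and the median was -0.08. They were *Dusp3* (log2 -0.90 ± 0.09), *Dusp18* (-0.48 ± 0.09), *Dusp22* (-0.40 ± 0.10) and *Dusp14* (-1.18 ± 0.31), and none of the 9 passed with TNFα. Of 5 tested tyrosine and PP2C phosphatases that act on MAP kinases, *Ppm1k* was higher (log2 0.90 ± 0.08) and *Ppm1l* lower (-0.37 ± 0.09) in wild type than in pTV. Of the kinases themselves, 10 MAP kinase genes were tested and none passed between wild type and pTV (median -0.06), while *Mapk6* (ERK3) rose with TNFα (0.82 ± 0.13). *Mapk14* (p38α) measured 0.04 ± 0.10 between wild type and pTV.

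Upstream, 19 MAP2 and MAP3 kinases were tested, with 3 higher and 1 lower in wild type than in pTV and a median of 0.01. *Map3k8* (Tpl2, which activates the ERK kinases) was 6.43-fold higher (log2 2.69 ± 0.16, limma adjusted p = 3.38e-07), *Map2k6* 0.54 ± 0.09 and *Map2k1* 0.44 ± 0.09 higher, and *Map3k14* (NIK) lower (-0.79 ± 0.12). The Sprouty and Spred genes encode inhibitors of Ras to ERK signalling. Of 6 tested, 3 were lower in wild type than in pTV, none higher, and the median was -0.72. *Spry4* was 4.41-fold lower (log2 -2.14 ± 0.33), *Spry2* measured -1.15 ± 0.19 and *Spry1* -0.95 ± 0.16, and *Spry4* alone of the list rose with TNFα (2.05 ± 0.33).

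Of 10 genes known to follow ERK activity, 7 were lower in wild type than in pTV and none higher, with a median of -0.89. They included *Fosl1* (log2 -0.96 ± 0.13), *Etv4* (-0.98 ± 0.13), *Phlda1* (-1.11 ± 0.16) and *Ccnd1* (-1.01 ± 0.15). With TNFα, 6 of these 10 rose, among them *Fosl1* (1.30 ± 0.13), *Ier3* (1.44 ± 0.15), *Myc* (0.66 ± 0.09) and *Fos* (1.47 ± 0.21). The NF-κB targets ran the other way against pTV, with 9 of 10 higher in wild type and a median of 1.39, and 9 of 10 rose with TNFα (median 1.07). Between a mutant and wild type, *Nfkbie* (lower in KTR) and *Ppm1k* (lower in K314/315R) were the only genes of these lists to pass. Neither ERK activity nor phosphorylation was measured.

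**Figure D4:**
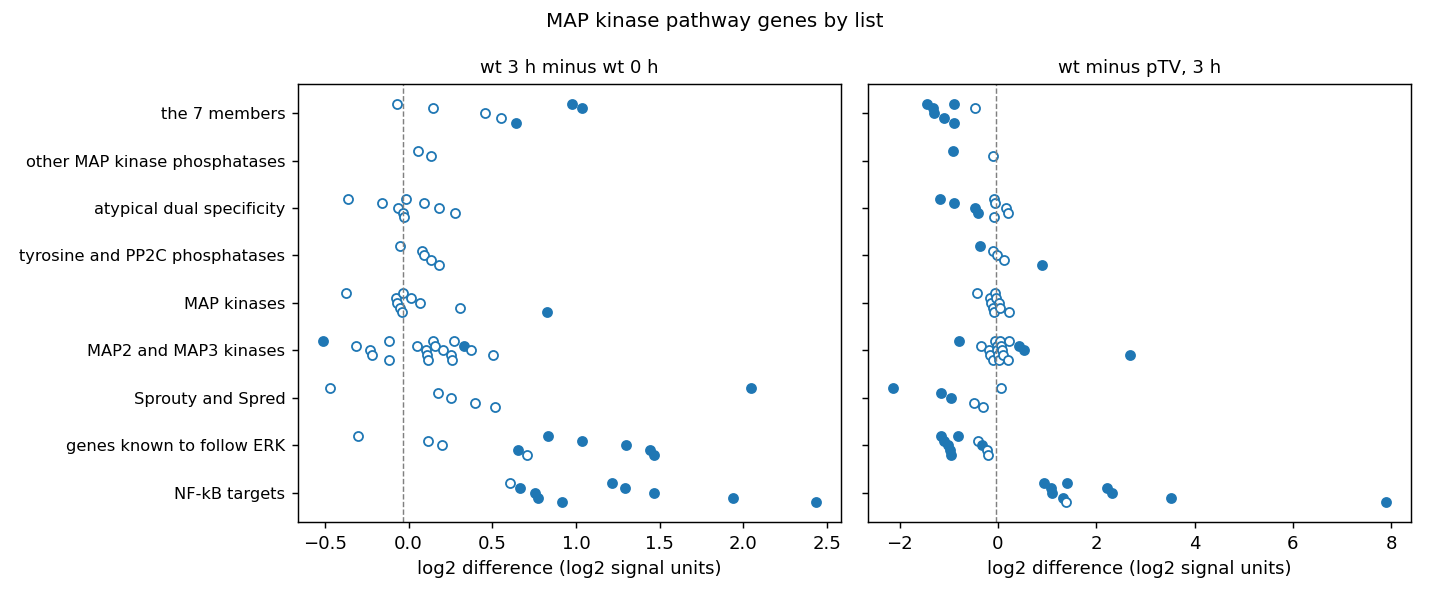
Log2 difference of each tested gene, by list, for TNFα in wild type cells (left) and for wild type against pTV at 3 h (right). Each point is 1 gene, filled where it passed the test (adjusted p under 0.05), with a vertical spread for legibility only, and the dashed line is the median of all tested probes. On the right the members, Sprouty and Spred genes and genes known to follow ERK activity lie mostly left of the line, and the NF-κB targets right of it.

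For the 3 members with the smallest adjusted p against pTV, the genes with the most similar pattern over the 14 arrays were sought among the 18524 probes that exceeded background on each of them. For *Dusp4* they were *Vegfa* (Pearson r = 0.996), 9530076L18 (0.992) and *Crem* (0.985). For *Dusp2* they were 1300014I06Rik (0.975), *Slc38a1* (0.966) and *Inhba* (0.965), and for *Dusp8* they were *Rkhd3* (0.982), *Plaur* (0.976) and *Creb5* (0.973). Group means of *Vegfa* rose in the same order as those of *Dusp4*, from 0.75 in untreated wild type over 1.36 in wild type at 3 h to 2.74 in pTV. Among the members, the pair of highest correlation was *Dusp4* and *Dusp6* (r = 0.972) and that of lowest *Dusp2* and *Dusp16* (0.520). These r values describe 14 arrays that share groups and slides.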

How the data were processed

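The 14 arrays were 1-colour Agilent whole-genome mouse arrays. Per the file headers, Feature Extraction 9.1.1.1 (slides 1 to 3) or 9.1.3.1 (slide 4) gave each spot a Cy3 intensity corrected for background and spatial trends and not scaled between arrays, and the authors deposited this scanner output. A series table of normalized intensity values, likewise deposited, served as an alternative. Spots marked as outliers were dropped, spots of a probe averaged, and each array divided by its 75th percentile (966.7 to 1442), with log2 taken. Tests covered each probe whose signal was well above background throughout 1 or more groups (22172 probes). Saturation touched 0 member spots. Groups, taken from the labels, entered 1 fit of all 14 arrays (limma 3.58.1, R 4.3.3). Tests were two-sided, p-values were adjusted after Benjamini-Hochberg across the tested probes, and the brightest tested probe stood for a gene. The test was tried on simulated data, with no outcome reported here. Alternatives were other scalings, background corrections, filters and thresholds, the authors' value table, the replicate number or slide as a block, fewer groups, the mean of a gene's probes, and leaving out each array. The number of arrays limits the precision.

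The members and gene lists were chosen with earlier results of these data known. All members are named, genes of a list where they passed the test (at most 4 per list and comparison, smallest adjusted p first) or as examples of a range, and *Rela*, *Tnfaip3*, *Dusp7* against wild type and the marker genes as checks or for their values. Same-numbered arrays of slides 1 to 3 deviated together from their group means (18 pairs, r 0.308 to 0.613, against -0.510 to 0.0954 for 36 other pairs), so the number pairs these arrays through the slide. For K314/315R the 8 same-number pairs gave -0.101 to 0.411, and no pairing is shown.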

Additional observations from a re-analysis of the deposited data

How the results depend on the processing

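The 21 member differences that passed gave 582 recomputed values under other settings or with fewer arrays. All kept their direction and 545 stayed past the threshold. Many of the settings left the compared means unchanged, as when an array of another group was left out. In these the direction could not change, only the adjusted p. For TNFα, 3 members passed in the fit reported, 0 with normexp, 1 without the filter on dim probes, 5 when the replicate number was a block and 1 to 4 with 1 array left out. Leaving out wild type replicate 2 or 3 at 3 h, or any 1 untreated array, gave 1. With normexp, 2 members passed for wild type against pTV, 1 for KTR against pTV and 1 for K314/315R against pTV. With only the 2 compared groups in the fit, 5 passed for KTR against pTV. *Dusp1* no longer did (log2 -0.80, limma adjusted p = 0.0533). Leaving out 1 array gave 6 members for wild type and for KTR against pTV, 5 (without K314/315R replicate 2) to 7 (without pTV replicate 1) for K314/315R against pTV, and 0 for either mutant against wild type. For KTR against wild type, 2 members (*Dusp2* and *Dusp4*) passed an unadjusted p, and with normexp on all arrays these differences were reversed (-0.20 and -0.36), but not with normexp on 12 arrays (0.23 and 0.39).

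Normexp left the spots of wild type replicate 1 at 3 h at a median log2 of 10.8 and of pTV replicate 2 at 9.39, against 7.14 to 8.05 on the other arrays. With normexp on the 12 other arrays, an alternative chosen after seeing the data, 16 of the 21 differences passed. The paired fit, which blocks on the replicate number, passed *Dusp1* and *Dusp16* for TNFα and *Dusp16* against pTV in addition, and took no call away. Over all probes, its TNFα calls rose from 1037 to 2347 and its wild type against pTV calls from 3287 to 5243. *Dusp4* is dim (19.6% of the tested probes were dimmer), and its TNFα difference lost its call at 0.20 on signals without background correction, an alternative also added later.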
